A study of Mus musculus with 32 samples.

Results

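The Vh7183 amplicon reads heavy chain joins of the mouse VH7183 family, named IGHV5 in the files, in pro-B cells, from control mice (WT) and mice knocked out for Setd2 (KO). Its clonotypes, each a CDR3 sequence with its V, D and J genes, were taken as the entries of the deposited series table that belong to this amplicon's sequencing series and whose library matches a deposited sample. This gave 168 clonotypes of the 908 in all matched libraries, from 10 of the 32 samples, with 1 sample per mouse. The 5 WT mice (1418, 1432, 1484, 1485 and 1536) held 104 of them, and the 5 KO mice (1421, 1423, 1464, 1487 and 1500) held 64. All mice were 8 weeks old and untreated, and the cells were sorted from bone marrow as B220+ CD43+ IgM- CD25-. Genomic DNA was amplified with a family primer and a JH4 primer, a product of 500 bp was taken from a gel, and reads of 150 bp were made. The labels give the knockout as KO with no allele, Cre driver or strain. An amplicon of the heavy chain locus holds no value for Setd2 or for a marker of the sorted cells, so genotype and cell type rest on the labels.

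To build a heavy chain variable region, a pro-B cell first links a D and a JH gene, and a V gene is then added to that DJ unit. The ends are opened as hairpins, trimmed, and extended with palindromic (P) bases and with untemplated (N) bases, the latter by terminal deoxynucleotidyl transferase. The sequence across these joins is CDR3, the most variable loop of the antibody. The VH7183 genes lie close to the D genes, with IGHV5-2 (VH81X) the nearest one in common use. SETD2 is the methyltransferase that trimethylates histone H3 at lysine 36 along transcribed genes.

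Libraries held 387 to 3045 productive clone reads and 9 to 35 clonotypes each, so a single clonotype moves a share by several percentage points. Each clonotype was counted once unless stated, the mouse was the replicate, and differences give KO less WT. Mice were compared by exact permutation, two-sided, for which the lowest possible p here is 0.00794. Of 22 repertoire measures, 0 passed after Benjamini-Hochberg adjustment over the 22 (0% called). By unadjusted exact p, 1 of 22 (4.55%) was under 0.05, the share of the IGHD1 family. The reads carry no molecular identifiers, so read shares and their intervals cover counting error only.

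Libraries of WT mice 1432 and 1484 stood apart, because they shared CDR3 sequences base for base. They had 9 identical sequences, which were 45.0% of the clonotypes and 61.3% of the reads of mouse 1432, and 25.7% of the clonotypes and 36.4% of the reads of mouse 1484. With sequences that differed at 1 base and used the same V and JH gene, 75.4% of the reads of mouse 1432 and 48.5% of those of mouse 1484 had a partner in the other mouse. Of the other 44 pairs of mice, 1 shared a sequence in the series table, namely KO mice 1423 and 1500. The shared sequences that show this most plainly are printed from the first to the last base of CDR3, 5′ to 3′, with bases assigned to no V, D or J gene (inserted bases) in capitals.
IGHV5-9 IGHD2-6 IGHJ4, mice 1432 and 1484: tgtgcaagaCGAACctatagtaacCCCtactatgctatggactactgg
IGHV5-9-1 IGHD1-1 IGHJ4, mice 1432 and 1484: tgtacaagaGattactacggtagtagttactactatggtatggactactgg
IGHV5-12 IGHD2-4 IGHJ4, mice 1432 and 1484: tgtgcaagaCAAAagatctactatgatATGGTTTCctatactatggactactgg
IGHV5-4 IGHD2-3 IGHJ4, mice 1432 and 1484: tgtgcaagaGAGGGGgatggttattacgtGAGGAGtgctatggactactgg
IGHV5-4 IGHD2-4 IGHJ4, mice 1432 and 1484: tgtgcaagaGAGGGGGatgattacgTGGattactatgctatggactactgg
IGHV5-4 IGHD4-1 IGHJ4, mice 1423 and 1500: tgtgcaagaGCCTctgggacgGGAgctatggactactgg

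The shared joins held from 1 to 12 inserted bases. The IGHV5-9-1 sequence carried 1. The IGHV5-12 sequence carried 12 inserted bases, and so did the IGHV5-4 IGHD2-3 sequence. The IGHV5-9 sequence had 134 reads in mouse 1432 and 107 in mouse 1484, the IGHV5-9-1 sequence had 98 and 78, and the IGHV5-4 IGHD2-3 sequence had 48 and 55. The largest clonotype of mouse 1432, an IGHV5-6 IGHD3-1 IGHJ4 join of 145 reads, had 33 reads in mouse 1484, and the largest of mouse 1484, an IGHV5-17 IGHD4-1 IGHJ4 join of 129 reads, had 54 in mouse 1432. The IGHV5-12 sequence had 70 and 33 reads, an IGHV5-6 IGHD1-1 join had 58 and 25, and the IGHV5-4 IGHD2-4 sequence had 22 and 66. An IGHV5-4 IGHD2-6 IGHJ3 join had 4 and 5. In the 2 shared IGHV5-6 joins the D hit was 5 bases long and lay in the palindromic extension of the D gene. Their D genes, IGHD3-1 and IGHD1-1, are therefore uncertain.

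Matches at all bases but 1 came on top of these. An IGHV5-4 IGHD2-3 join had 74 reads in mouse 1432 and 88 in mouse 1484 with the difference C29T, and an IGHV5-9 IGHD1-1 join had 66 and 88 reads with C39T, the base of mouse 1432 standing first and positions counted from the first base of CDR3. In the clone lists of the single samples, which hold joins in every frame, mice 1432 and 1484 shared 13 sequences, 3 of them nonproductive, against at most 2 in any of the other 44 pairs. There 7 of the other pairs shared a sequence, KO mice 1487 and 1500 the 2, and KO mice 1423 and 1500 shared 0. In the Vhq52 amplicon of the same animals they shared 0 of 15 and 28 clonotypes. The sequence that KO mice 1423 and 1500 shared in the series table had 97 reads (25.1%) in mouse 1500 and 2 reads in mouse 1423. The source of the shared sequences was not tested. Without the shared sequences, the difference in clonotypes under 10 reads was -18.2 points in place of -12.9 (exact p = 0.0476, adjusted p = 0.419). It was 3.14 points in place of 1.43 for IGHV5 genes other than IGHV5-2, -1.44 in place of -0.502 for IGHV5-2, -1.69 in place of -0.930 for IGHV6 and IGHV7 together, and -1.82 in place of -0.0925 for glycine and serine.

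Usage of V genes was spread over 12 genes, 9 of IGHV5 and 3 of IGHV6 or IGHV7. Over both genotypes together IGHV5-17 was used most (15 clonotypes in WT and 22 in KO mice). It was followed by IGHV5-4 (18 and 12), IGHV5-6 (16 and 7), IGHV5-12 (11 and 7) and IGHV5-2 (10 and 7). In WT mice IGHV5-4 and IGHV5-6 had more clonotypes than IGHV5-17. The 22 in KO mice include groups of close variants, the largest of 9 clonotypes in mouse 1423. edgeR's quasi-likelihood test on the 10 genes with at least 5 clonotypes called 0 of 10 (0%) at an adjusted p of 0.05, and DESeq2 also called 0. At an unadjusted p under 0.05 each tool gave 1 gene, IGHV5-9-1.

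IGHV5-9-1 was found in 3 of 5 WT mice and in 0 of 5 KO mice. Its clonotypes numbered 0, 2, 4, 0 and 3 in WT mice 1418, 1432, 1484, 1485 and 1536, together 9 of 104 (8.65%). A count of 0 in 64 KO clonotypes allows a share of up to 4.69% (3 clonotypes over the group, counting error only, mice pooled). The adjusted p was 0.0819 by edgeR's quasi-likelihood test and 0.288 by DESeq2. It came under the threshold with TMM normalization (adjusted p = 0.0224) and without WT mouse 1418 (adjusted p = 0.0341) and was 0.323 without WT mouse 1536. In mice 1432 and 1484, 2 of the 6 IGHV5-9-1 clonotypes were the shared sequence printed before, and 1 more differed from it at 1 base. Without the shared sequences, an alternative added after seeing the data, edgeR called 0 of 10 genes and the adjusted p of IGHV5-9-1 was 0.152.

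Other V genes differed less against the spread of mice. IGHV5-17 had 2, 4, 5, 2 and 2 clonotypes in WT mice and 0, 10, 8, 4 and 0 in KO mice 1421, 1423, 1464, 1487 and 1500, a log2 difference of 1.14 (edgeR adjusted p = 0.476). KO mice 1423 and 1464 lay above every WT mouse and KO mice 1421 and 1500 below, and 9 of the 10 in mouse 1423 were 1 group of close variants. IGHV5-16 had 1, 1, 3, 1 and 1 clonotypes in WT mice, against a single one in KO mouse 1421 and 0 in the other KO mice (log2 difference -1.70, edgeR adjusted p = 0.476). For IGHV5-4, IGHV5-12 and IGHV5-2 the log2 differences were 0.14, 0.05 and 0.17, and each was below 0 with TMM, which moved the median of the 10 genes by -0.68.

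**Figure D1:**
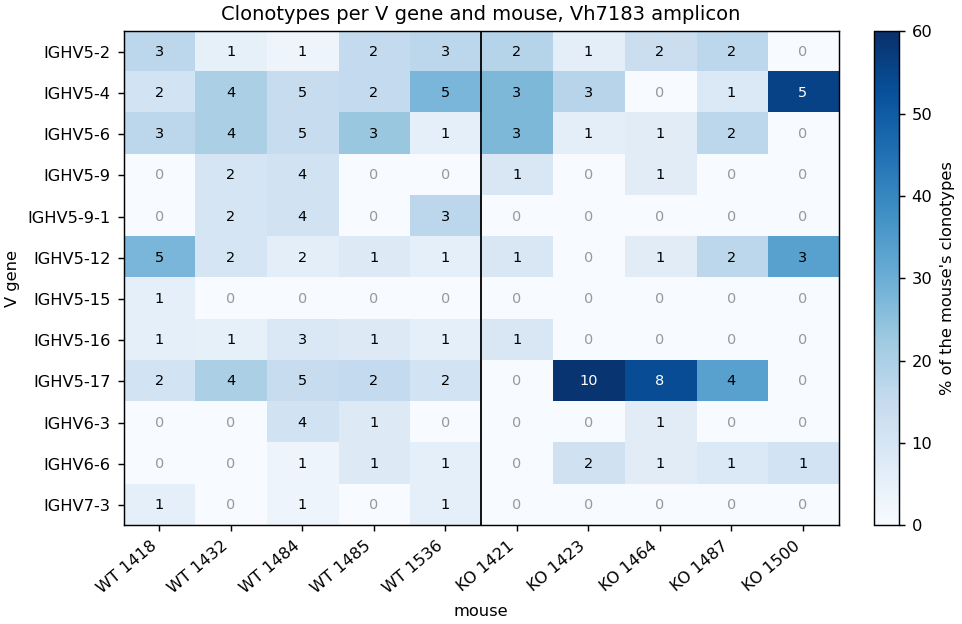
Number of clonotypes of each V gene (rows) in each mouse (columns), shaded by the percentage of the mouse's clonotypes, with the 5 WT mice left of the line and the 5 KO mice right of it. IGHV5-17 held 10 of 17 clonotypes in KO mouse 1423 and none in KO mice 1421 and 1500, and IGHV5-9-1 appears in 3 WT mice.

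Shares of IGHV5-2, the gene nearest to D in common use, overlapped between the genotypes. Its share was 16.7%, 5.0%, 2.86%, 15.4% and 16.7% of clonotypes in WT mice 1418, 1432, 1484, 1485 and 1536. In KO mice 1421, 1423, 1464, 1487 and 1500 it was 18.2%, 5.88%, 13.3%, 16.7% and 0%. The ranges overlap almost fully, and the difference was -0.502 points (95% interval from -13.1 to 11.7, exact p = 0.865, adjusted p = 0.976). Counted by reads it was uneven: an IGHV5-2 join held 55.1% of the reads of KO mouse 1421, and IGHV5-2 held 19.1% of those of WT mouse 1485 and at most 5.62% in every other mouse.

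Counted by clonotype, IGHV5-2 joins used IGHJ4 in few cases. By reads, the largest IGHV5-2 join (622 reads, KO mouse 1421) and the next (270 reads, WT mouse 1485) both used IGHJ4. Of 10 IGHV5-2 clonotypes in WT mice 5 used IGHJ2, 2 IGHJ3 and 3 IGHJ4, and of 7 in KO mice 3 used IGHJ2, 3 IGHJ3 and 1 IGHJ4. In the other IGHV5 genes 54 of 83 clonotypes used IGHJ4 in WT mice and 18 of 51 in KO mice, the 51 including 9 close variants with IGHJ3 in mouse 1423. A join of IGHV5-2, IGHD3-2 and IGHJ2 came up in 4 mice, WT 1432 and 1536 and KO 1464 and 1487, each time with another sequence. The difference in JH use between V groups was not tested.
IGHV5-2 IGHD3-2 IGHJ2, WT mouse 1432, 4 reads: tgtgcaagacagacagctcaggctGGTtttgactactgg
IGHV5-2 IGHD3-2 IGHJ2, WT mouse 1536, 3 reads: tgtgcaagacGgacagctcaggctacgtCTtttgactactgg
IGHV5-2 IGHD3-2 IGHJ2, KO mouse 1464, 4 reads: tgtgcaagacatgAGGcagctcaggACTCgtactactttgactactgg
IGHV5-2 IGHD3-2 IGHJ2, KO mouse 1487, 35 reads: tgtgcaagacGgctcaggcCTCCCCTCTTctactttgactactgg

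Genes of the IGHV6 and IGHV7 families, which the VH7183 primer also picked up, gave 17 clonotypes in 8 of the 10 mice and 303 of the reads. IGHV6-6 had 3 clonotypes in WT and 5 in KO mice, IGHV6-3 had 5 and 1, and IGHV7-3 had 3 and 0. Of the 5 IGHV6-6 clonotypes in KO mice, 2 were close variants in mouse 1423. In contrasts that were not tested, 16 of the 17 used IGHJ4, against 76 of the 151 IGHV5 clonotypes. The 151 include the 9 close variants with IGHJ3 in mouse 1423. No D gene was found in 5 of the 17, against 20 of 151, which also include close variants. Of the 5 without a D gene, 4 were IGHV6-6 joins, 2 of them the pair of mouse 1423. Their share of clonotypes was 9.84% ± 7.09 (SD, n = 5) among WT animals, against 8.91% ± 5.30 (SD, n = 5) among KO animals, a difference of -0.930 points (95% interval from -10.4 to 8.66, exact p = 0.833). By reads it was at most 2.71% in WT mice and 4.96% in KO mice, the highest being a single IGHV6-6 join of 151 reads in KO mouse 1487.
IGHV6-6 IGHJ4, KO mouse 1487, 151 reads: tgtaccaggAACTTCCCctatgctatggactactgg
IGHV6-6 IGHJ4, KO mouse 1423, 38 reads: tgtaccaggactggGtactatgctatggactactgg
IGHV6-6 IGHJ4, WT mouse 1485, 21 reads: tgtaccCGGGtggactactgg
IGHV6-3 IGHD1-1 IGHJ4, WT mouse 1485, 18 reads: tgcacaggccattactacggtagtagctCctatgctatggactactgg
IGHV7-3 IGHD2-4 IGHJ4, WT mouse 1418, 16 reads: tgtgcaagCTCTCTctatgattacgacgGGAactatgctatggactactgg

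The share of the IGHD1 family had the lowest unadjusted p of the 22 measures. IGHD1-1, its gene and the D gene nearest to the V genes, made up 56.2%, 30.0%, 35.5%, 55.6% and 37.5% of the joins with a D gene in WT mice 1418, 1432, 1484, 1485 and 1536. In KO mice 1421, 1423, 1464, 1487 and 1500 it made up 20%, 13.3%, 41.7%, 0% and 0%. Of the KO mice, 4 lay below every WT mouse and mouse 1464 lay among them. Mouse 1487 had 8 joins with a D gene and mouse 1500 had 6, for which a count of 0 allows a share of up to 37.5% and 50%.

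The mean share of IGHD1 was 43.0% ± 12.1 (SD, n = 5) among WT animals, against 15% ± 17.2 (SD, n = 5) among KO animals. The difference was -28.0 points (95% interval from -49.2 to -5.24, exact p = 0.0317, adjusted p = 0.524), so it did not pass adjustment. It ran from -34.8 to -24.2 points over 16 alternatives, with exact p from 0.00794 to 0.0794, and was -30.1 without the shared sequences. In the Vhq52 amplicon of these animals the IGHD1 share was 27.8% ± 21.4 (SD, n = 5) among WT animals, against 32.9% ± 22.4 (SD, n = 4) among KO animals. The IGHD1 share of Vh7183 less that of Vhq52 in the same mouse, a test chosen after seeing the data, gave a difference between KO and WT mice of -32.7 points (95% interval from -75.9 to 9.0, exact p = 0.127, adjusted p = 0.254 over 4 such tests). Against Vh558, with 4 WT and 4 KO mice, it was -17.7 points (exact p = 0.286, adjusted p = 0.381). In Vh558 the IGHD1 share was 30.3% ± 27.6 (SD, n = 4) among WT animals, against 37.5% ± 35.4 (SD, n = 5) among KO animals. Not all of these KO animals were in Vh7183, and some mice had a replicate Vh558 library.

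The other D families varied from mouse to mouse. IGHD2 genes, the largest D family, made up 22.2% to 50% of D joins in WT mice and 33.3% to 80.0% in KO mice, a difference of 15.2 points (95% interval from -8.57 to 38.3, exact p = 0.190). Without KO mouse 1421, the one at 80.0%, it was 8.79 points (exact p = 0.365). Among them IGHD2-6 had 9 clonotypes in WT and 14 in KO mice, 9 of the latter in mouse 1423 alone. IGHD4-1, the D gene next to the JH genes, had 8 clonotypes in WT mice, in 3 of them, and 9 in KO mice, in 4 of them with 4 in mouse 1500. IGHD3 genes had 8 and 4. No D gene was found in 12 of 104 WT and 13 of 64 KO clonotypes.

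**Figure D2:**
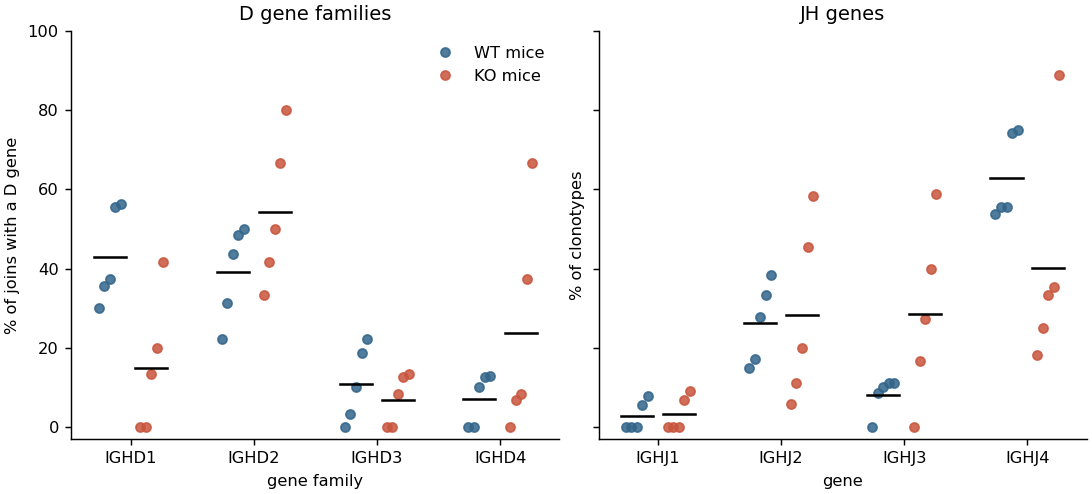
Share of each D gene family among joins with a D gene (left) and of each JH gene among clonotypes (right), in percent. Each point is a mouse, the 5 WT and the 5 KO mice side by side, and the bar is their mean. IGHD1 was at 30.0% to 56.2% in WT mice and at 0% to 41.7% in KO mice, and for IGHJ4 KO mouse 1500 lies above all others at 88.9% while the other KO mice lie below every WT mouse.

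JH use was split in the KO group by a single mouse. IGHJ4, the JH gene of the reverse primer, had 55.6%, 75.0%, 74.3%, 53.8% and 55.6% of clonotypes in WT mice 1418, 1432, 1484, 1485 and 1536. It had 18.2%, 35.3%, 33.3%, 25% and 88.9% in KO mice 1421, 1423, 1464, 1487 and 1500. Mouse 1500 was above every WT mouse and the other 4 KO mice below every WT mouse. The difference was -22.7 points (95% interval from -48.9 to 7.39, exact p = 0.119, adjusted p = 0.524), and without mouse 1500, which had 387 reads and 9 clonotypes, it was -34.9 points (exact p = 0.00794, adjusted p = 0.0873). In clonotypes of at least 10 reads it was -44.0 points, and weighted by reads -10.2 points (exact p = 0.0476 for each). Without WT mice 1432 and 1484, 8 of whose 9 shared sequences use IGHJ4, it was -14.8 points (exact p = 0.464).

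IGHJ3 stood the other way round. Its share was 0% to 11.1% in WT mice and 27.3%, 58.8%, 40%, 16.7% and 0% in KO mice 1421, 1423, 1464, 1487 and 1500, a difference of 20.4 points (95% interval from -2.22 to 45.1, exact p = 0.0952). Without mouse 1500 it was 27.5 points (exact p = 0.00794), and without mouse 1423, whose 9 variants use IGHJ3, it was 12.8 points (exact p = 0.159). It was 9.19 points weighted by reads and 32.2 in clonotypes of at least 10 reads (exact p = 0.0476 for each), and with close variants within a mouse merged the 2 JH differences kept their signs. By reads, IGHJ4 held 96.4% to 98.2% in WT mice, 76.1% to 88.4% in KO mice 1421, 1423, 1464 and 1487, and 99.0% in KO mouse 1500. IGHJ2 was used by 25 of 104 WT and 17 of 64 KO clonotypes, and IGHJ1 by 2 in each genotype. A join to IGHJ1, IGHJ2 or IGHJ3 gives a longer product with a JH4 primer than the one taken from the gel, and the part of that step in these shares was not tested.

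Nonproductive joins of the single lists gave the same order of means for IGHJ3, on few joins per mouse. Of those of at least 2 reads, the last bases named a JH gene in 66 of 81 in WT and 32 of 42 in KO mice. These were 4 to 22 joins in a WT mouse and 3 to 9 in a KO mouse. Among them IGHJ3 had 14.4% ± 9.75 (SD, n = 5) among WT animals, against 38.9% ± 24.8 (SD, n = 5) among KO animals. The highest share, 66.7% in KO mouse 1423, rested on 3 joins, and KO mouse 1500 had 0%. The difference was 24.4 points (95% interval from -3.79 to 49.2, exact p = 0.0794, adjusted p = 0.254 over the 4 tests chosen after seeing the data). For IGHJ4 it was -13.4 points (exact p = 0.500), with all 5 such joins of KO mouse 1500 on IGHJ4.

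D genes were paired with JH genes as follows. IGHD1-1 was joined to IGHJ4 in 27 of 37 WT and 5 of 9 KO clonotypes, and to IGHJ3 in 0 of either. IGHD2 genes were joined to IGHJ4 in 26 of 39 WT clonotypes and in 5 of 29 KO clonotypes, 1 in each KO mouse, and to IGHJ3 in 7 of 39 and 17 of 29. Of these 17, 9 were the variants of mouse 1423, and the others came from mice 1421, 1464 and 1487. Of the 26 WT joins of IGHD2 to IGHJ4, 7 were in mouse 1432 and 11 in mouse 1484. Sequences that these 2 mice share are counted in both. In WT mice 1418, 1485 and 1536, IGHJ4 was used by 3 of 7, 2 of 2 and 3 of 5 IGHD2 joins. IGHD4-1 was joined to IGHJ4 in 6 of 8 and 7 of 9. These counts pool mice of unequal size and were not tested.

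Full V-D-J combinations recurred seldom. Of 96 combinations, 69 were seen in 1 mouse and 8 in at least 3. IGHV5-17 IGHD1-1 IGHJ4 was found in 5 mice (4 WT and 1 KO), followed by the IGHV5-2 join already described. Found in 3 mice each were IGHV5-12 IGHD1-1 IGHJ4, IGHV5-4 IGHD4-1 IGHJ4, IGHV5-9-1 IGHD1-1 IGHJ4, IGHV5-12 IGHD2-4 IGHJ4, IGHV5-17 IGHD1-1 IGHJ2 and IGHV6-6 with IGHJ4 and no D gene. The IGHV5-9-1 and IGHV5-12 IGHD2-4 combinations came from WT mice alone, and mice 1432 and 1484 were among them in both. For IGHV5-4 IGHD4-1 IGHJ4, the join of KO mouse 1423 was the sequence it shared with KO mouse 1500, at 2 reads.

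D genes can be read in 3 frames, 1 of which codes for tyrosine-rich peptides in IGHD1 and IGHD2, 1 for hydrophobic ones, and 1 often for stop codons. In these productive clonotypes 48.6% of the residues coded within IGHD1 in the tyrosine frame were tyrosine and 46.9% of those within IGHD2, against 0% in the other frames. Joins of IGHD1 in each frame are printed with inserted bases in capitals.
Tyrosine frame, IGHV5-4 IGHD1-1 IGHJ4, WT mouse 1485, 609 reads: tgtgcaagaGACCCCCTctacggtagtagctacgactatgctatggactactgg
Frame coding isoleucine, threonine and valine, IGHV5-17 IGHD1-1 IGHJ4, WT mouse 1485, 468 reads: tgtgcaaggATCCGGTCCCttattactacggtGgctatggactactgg
Leucine frame, IGHV5-4 IGHD1-1 IGHJ4, KO mouse 1423, 324 reads: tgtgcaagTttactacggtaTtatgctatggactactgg

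Counted by clonotype, the tyrosine frame was the most used in 9 of 10 mice, KO mouse 1487 being the exception. It took 66.7%, 92.9%, 80.0%, 85.7% and 62.5% of IGHD1 and IGHD2 joins in WT mice 1418, 1432, 1484, 1485 and 1536, and 60%, 75.0%, 55.6%, 25% and 100% in KO mice 1421, 1423, 1464, 1487 and 1500. The mice with the lowest and the highest share, KO 1487 and 1500, rest on 4 and 2 joins. In KO mouse 1423 all 9 joins in the tyrosine frame were 1 group of close variants, and its 3 other joins lay in other frames. The difference was -14.4 points (95% interval from -46.2 to 15.4, exact p = 0.341, adjusted p = 0.751), and -31.4 points in clonotypes of at least 10 reads (exact p = 0.00794, adjusted p = 0.175), which 5 WT and 4 KO mice had. It was -4.91 points without KO mouse 1487 (exact p = 0.675), -23.7 without KO mouse 1500 (exact p = 0.0635) and -8.52 without WT mice 1432 and 1484 (exact p = 0.661). With close variants merged it was -20.2 points (exact p = 0.214, adjusted p = 0.673). Within IGHD1 alone the tyrosine frame was read in 25 of 34 WT and 3 of 9 KO clonotypes, and 2 pairs of those 9 were close variants within a mouse. Within IGHD2 it was read in 29 of 35 and 20 of 28, and 9 of those 20 were close variants in KO mouse 1423.

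**Figure D3:**
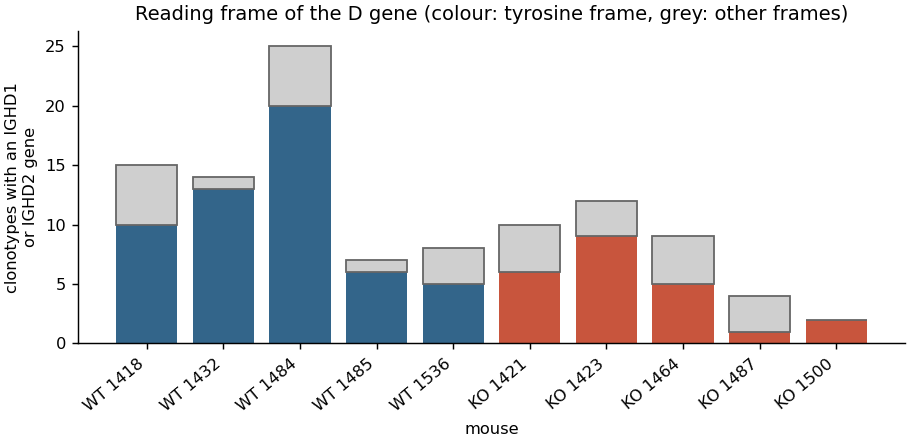
Clonotypes with an IGHD1 or IGHD2 gene in each mouse, split into the tyrosine frame (colour, blue for WT and red for KO mice) and the other frames (grey). The tyrosine frame had 54 of 69 such clonotypes in WT mice and 23 of 37 in KO mice, and KO mouse 1487 had 1 of 4. In KO mouse 1423 the 9 in the tyrosine frame were 1 group of close variants.

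None of the tested residue groups of the CDR3 loop, taken between the first cysteine and the last tryptophan, passed the test. Tyrosine made up 24.6%, 23.7%, 23.9%, 22.5% and 17.6% of the loop in WT mice 1418, 1432, 1484, 1485 and 1536 and 19.6%, 22.2%, 19.3%, 19.6% and 21.1% in KO mice 1421, 1423, 1464, 1487 and 1500. All KO mice lay within the WT range, whose low end was mouse 1536 alone. The difference was -2.07 points (95% interval from -4.68 to 1.61, exact p = 0.175), and -3.29 points without mouse 1536 (exact p = 0.0159, adjusted p = 0.349). It was -3.77 points in clonotypes of at least 10 reads (exact p = 0.0238) and -1.18 without WT mice 1432 and 1484 (exact p = 0.518).

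Glycine and serine together made up 14.1% ± 1.32 (SD, n = 5) among WT animals, against 14.0% ± 6.91 (SD, n = 5) among KO animals (exact p = 0.976). Weighted by reads the difference was -3.33 points (exact p = 0.0714, adjusted p = 0.291). The KO mice spread from 5.58% in mouse 1487 to 24.9% in mouse 1423, where the IGHV5-17 variants carry glycine at their V-D junction. Charged residues (arginine, lysine, histidine, aspartate and glutamate) made up 25.6% ± 2.22 (SD, n = 5) and 23.7% ± 5.95 (SD, n = 5), with exact p = 0.508, and their difference of -1.88 points ran from -3.68 to 0.842 over the alternatives. Mean hydropathy on the Kyte-Doolittle scale, where negative values are hydrophilic, was -0.827 ± 0.119 (SD, n = 5) for WT animals and -0.761 ± 0.255 (SD, n = 5) for KO animals, which differ by 0.0658 (95% interval from -0.236 to 0.388, exact p = 0.627). Single residues were not tested, and tryptophan was named after its values were seen, as the residue with the largest mean difference (2.15 points). It was at 0.35% to 1.29% of the loop in WT mice and 0.65% to 4.18% in KO mice. In some joins bases of IGHJ3 or IGHD4-1 code for tryptophan. The part of JH and D use in this difference was not tested.

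Inserted bases gave no difference that passed the test. At the V-D junction WT mice had means of 5.50, 3.65, 4.52, 4.22 and 4.19 bases (mice 1418, 1432, 1484, 1485 and 1536) and KO mice had 5.20, 3.87, 7.42, 1.38 and 3.17 (mice 1421, 1423, 1464, 1487 and 1500). The KO mice spanned more than the WT mice at both ends. The difference was -0.210 bases (95% interval from -2.59 to 2.37, exact p = 0.849). It was -2.07 bases weighted by reads (exact p = 0.103) and -1.01 without KO mouse 1464 (exact p = 0.230). At the D-J junction it was -0.0684 bases (95% interval from -1.04 to 1.07, exact p = 0.960), with 2.28 ± 1.11 (SD, n = 5) among WT animals, against 2.21 ± 0.464 (SD, n = 5) among KO animals. The V-D insert was the longer one in 99 of 143 clonotypes with a D gene and the D-J insert in 32.

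Some joins had no inserted bases. Of the 143 clonotypes with a D gene, 13 had none at V-D, 35 had none at D-J and 1 had none at either. The share without an insert at 1 or both junctions was 34.8% ± 24.4 (SD, n = 5) among WT animals, against 37.5% ± 19.5 (SD, n = 5) among KO animals (exact p = 0.889). WT mouse 1485 stood apart at 77.8%, with a mean of 0.333 bases at D-J over 9 joins. The longest inserts had 16 bases at V-D and 10 at D-J. The one of 16 bases was in an IGHV5-2 clonotype of 3 reads in WT mouse 1536. Of 1159 inserted bases over all clonotypes, joins without a D gene included, 64.7% were G or C (62.4% in WT and 68.9% in KO mice), and KO mouse 1423 with its variants was highest at 86.4%.

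Trimming of the gene ends gave no difference that passed the test. V genes were kept to their last base, or with P bases added, in 84 of 104 WT and 49 of 64 KO clonotypes. The deepest loss, 7 bases, was in the same clonotype of 3 reads in WT mouse 1536 as the longest V-D insert. Mean V trimming was 0.491 ± 0.355 bases (SD, n = 5) among WT animals, against 0.417 ± 0.408 (SD, n = 5) among KO animals (exact p = 0.746). D genes lost 4.5 ± 1.47 bases (SD, n = 5) at the 5′ end in WT mice, with 3.55 ± 0.884 (SD, n = 5) in KO mice (exact p = 0.262), and 2.75 ± 0.951 against 2.03 ± 1.31 (both SD, n = 5) at the 3′ end (exact p = 0.341). JH genes lost 3.50 ± 0.943 and 3.45 ± 2.05 bases (both SD, n = 5; exact p = 0.960), and up to 13 bases in a single join. In 11 clonotypes, 9 WT and 2 KO, the D hit lay in the palindromic extension of the gene, and these were left out of frames and D trimming. With them the 3′ difference was -2.51 bases in place of -0.722 (exact p = 0.0317, adjusted p = 0.349), and weighted by reads, without them, it was -0.272. The 5′ difference of -0.941 bases was -0.315 without WT mouse 1485.

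Clone sizes leaned to few clonotypes in both genotypes. Of the 12 clonotypes that held over 25% of the reads of their mouse, 9 were in the 5 KO mice and 3 in 2 WT mice, and all 12 used IGHJ4. They are printed because they are the largest clonotypes of these libraries, and the pair of WT mouse 1485 and the shared one of KO mouse 1500 stand among the sequences already given.
WT mouse 1418, IGHV5-17 IGHJ4, 424 reads: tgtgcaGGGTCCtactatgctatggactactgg
KO mouse 1421, IGHV5-2 IGHJ4, 622 reads: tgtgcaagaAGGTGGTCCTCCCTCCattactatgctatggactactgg
KO mouse 1421, IGHV5-6 IGHD2-6 IGHJ4, 376 reads: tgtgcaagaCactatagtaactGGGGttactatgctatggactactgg
KO mouse 1423, IGHV5-17 IGHD2-7 IGHJ4, 689 reads: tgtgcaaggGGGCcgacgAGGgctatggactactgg
KO mouse 1464, IGHV5-17 IGHD2-6 IGHJ4, 278 reads: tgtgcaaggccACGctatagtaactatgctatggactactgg
KO mouse 1464, IGHV5-17 IGHD1-1 IGHJ4, 212 reads: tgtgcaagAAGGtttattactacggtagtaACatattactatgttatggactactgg
KO mouse 1487, IGHV5-12 IGHD2-6 IGHJ4, 1586 reads: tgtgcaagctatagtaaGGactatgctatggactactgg
KO mouse 1487, IGHV5-6 IGHD4-1 IGHJ4, 924 reads: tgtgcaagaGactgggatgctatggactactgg
KO mouse 1500, IGHV5-4 IGHD4-1 IGHJ4, 101 reads: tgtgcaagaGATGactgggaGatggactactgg

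These clonotypes held between 1 and 16 inserted bases. The IGHV5-2 clonotype of KO mouse 1421 held 55.1% of its reads (95% Wilson interval 52.2% to 58.0%) with 16 inserted bases and no D gene. The IGHV5-12 clonotype of KO mouse 1487 held 52.1% (50.3% to 53.9%) with 2 inserted bases. In WT mice the highest share was 42.4% (39.8% to 44.9%) in mouse 1485.

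Reads outside the 3 largest clonotypes of a mouse were 34.7%, 62.1%, 75.4%, 6.33% and 52.5% in WT mice 1418, 1432, 1484, 1485 and 1536 and 8.50%, 26.6%, 19.0%, 12.6% and 26.9% in KO mice 1421, 1423, 1464, 1487 and 1500. All KO mice were below 4 of the WT mice and above mouse 1485. The difference was -27.5 points (95% interval from -53.6 to 2.43, exact p = 0.0714, adjusted p = 0.524). It was -37.5 points without WT mouse 1485 (exact p = 0.00794, adjusted p = 0.175) and -12.5 points without WT mice 1432 and 1484, which hold the shared sequences.

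Small clonotypes, under 10 reads, were 43.3% ± 7.70 (SD, n = 5) of clonotypes among WT animals, against 30.4% ± 11.6 (SD, n = 5) among KO animals, a difference of -12.9 points (95% interval from -27.8 to 2.22, exact p = 0.0635, adjusted p = 0.524). A fixed cut of 10 reads is a larger part of a smaller library. The share was 16.7% in KO mouse 1487, with 3045 reads, and 44.4% in KO mouse 1500, with 387. In WT mouse 1432, with 1033 reads, it was 30.0%, the lowest of the WT mice. The part of library size in this difference was not tested. Between 3 and 17 clonotypes made up 90% of the reads of a mouse.

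**Figure D4:**
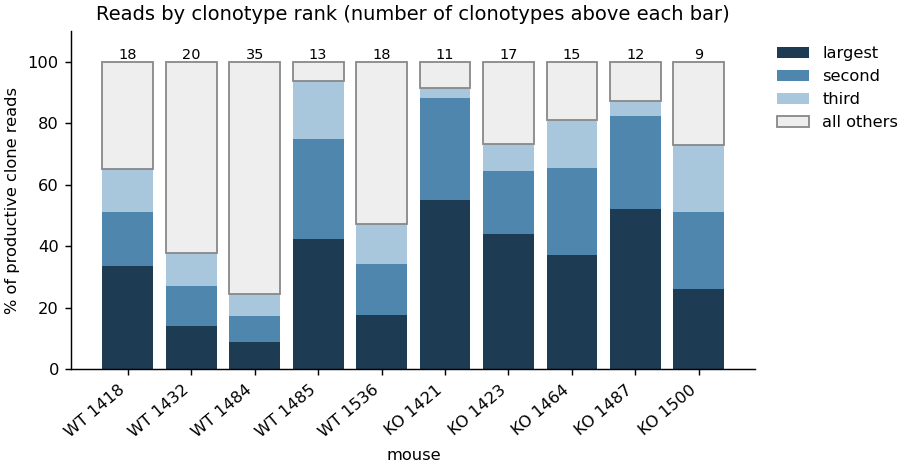
Share of productive clone reads held by each of the 3 largest clonotypes of a mouse and by all others, in percent, with the number of clonotypes above each bar. The 3 largest held 24.6% to 93.7% of reads in WT mice and 73.1% to 91.5% in KO mice.

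Some clonotypes were close variants of a larger one in the same mouse, with the same V and JH gene and at most 2 mismatches. There were 12 such groups with 33 clonotypes in 7 mice, chained so that each smaller member was that close to a larger one of its group. The largest was in KO mouse 1423, where 9 IGHV5-17 IGHD2-6 IGHJ3 sequences held 338 reads, the most frequent 91 and the next 72, as the first and second of them show.
KO mouse 1423, 91 reads: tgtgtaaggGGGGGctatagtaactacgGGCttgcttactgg
KO mouse 1423, 72 reads: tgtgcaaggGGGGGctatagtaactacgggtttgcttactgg
KO mouse 1423, 43 reads: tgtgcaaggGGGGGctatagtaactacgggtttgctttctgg
With variants merged, KO mouse 1423 went from 17 to 7 clonotypes and KO mouse 1500 from 9 to 6, while mice 1421, 1484 and 1536 had none to merge. The IGHD1 difference was then -26.4 points (exact p = 0.0238, adjusted p = 0.437) and that of IGHJ4 -18.5 points.

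Reads in sequences shared with another mouse were 0% in all mice but WT 1432 and 1484 (61.3% and 36.4%) and KO 1423 and 1500 (0.127% and 25.1%). The difference was -14.5 points (95% interval from -48.9 to 12.6, exact p = 0.444), and 5.04 points without mice 1432 and 1484. A mouse has such reads only through a partner, here of the same genotype. For this measure the mice are therefore not independent, which the p-value and interval take no account of.

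**Figure D5:**
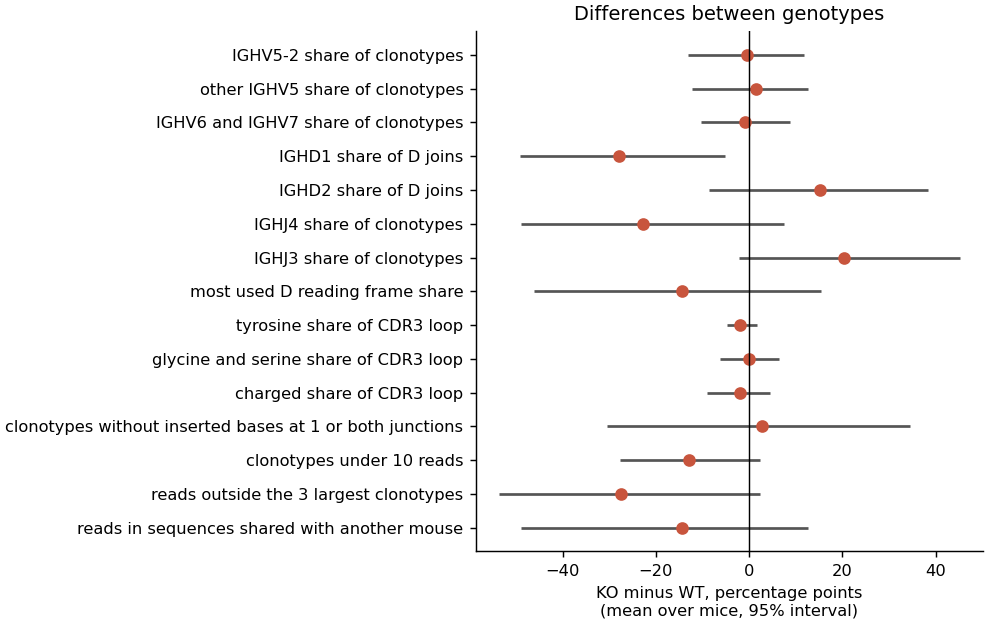
Differences between the genotypes, KO minus WT, in percentage points for the 15 measures that are shares. Points are differences of means over 5 and 5 mice, and lines are 95% intervals from the exact permutation test. The interval of the IGHD1 share, -49.2 to -5.24, is the one that leaves out 0, before any adjustment for the number of measures.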

How the data were processed

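Per the labels, genomic DNA of sorted pro-B cells was amplified and sequenced on a MiSeq; the series title names MiXCR, with version, reference and settings not given in the sources used here. The labels' protocol also names a poly-A step and an RNA library kit beside genomic DNA. The deposited table of the authors gives, per clonotype, a clone count (whole reads, not normalized) and a clone fraction of its library, with V, D and J hits and positions. The deposited lists of the single samples hold clone counts and CDR3 sequences for joins in every frame. Their productive part does not equal the table: they hold 140 productive clonotypes in WT and 95 in KO mice, against 104 and 64. Of 34 libraries in the table, 2 matched no sample and were not used. The D letters there were shifted by 1 base in 143 of 143 hits, so segments were cut from the positions.

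Shares, frames, trimming and inserts were computed per mouse in Python 3.11.15 (pandas 2.3.3, numpy 2.4.6, scipy 1.17.1), with exact permutation tests and Benjamini-Hochberg adjustment. V gene counts of clonotypes were tested with edgeR 4.0.16 (quasi-likelihood, library size as total) and DESeq2 1.42.0 in R 4.3.3, after tests on simulated data. The rule for naming took every V gene tested, IGHV5-2, the IGHV6 and IGHV7 genes, the D families and their genes of at least 5 clonotypes, the JH genes, combinations held by at least 3 mice, clonotypes over 25% of reads and sequences in at least 2 mice; tryptophan and the variants of KO mouse 1423 were named after their values were seen. Members, lists and tests were chosen with earlier results of these data known. Merging variants, leaving out both WT mice 1432 and 1484, the V gene test without shared sequences, the handling of D hits in the palindromic extension and the 4 added tests were chosen after seeing the data.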

Additional observations from a re-analysis of the deposited data

Results flagged for a closer look

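In 7 cases a mouse lay far from the other 4 of its group, over 44 groups looked at; at the 95% critical value used (Dixon's test), chance marks about 1 in 20 groups. KO mouse 1500 was high in its share of IGHJ4, at 88.9% against 35.3% in the next KO mouse, and in reads in shared sequences, at 25.1% against 0.127%. WT mouse 1485 was low in its share of IGHJ3, at 0% against 8.57%, and in D-J inserted bases, at 0.333 against 2.44, and high in joins without inserted bases at 1 or both junctions, at 77.8% against 30.0%. KO mouse 1423 was low in D-J inserted bases, at 1.4 against 2.30. WT mouse 1432 was low in its share of clonotypes under 10 reads, at 30.0% against 44.4%.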

How the results depend on the processing

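No paired analysis was possible because the WT and KO mice of this amplicon share no number. Of 330 alternative values of the 22 measures, 272 kept the sign and 58 did not, and 0 had an adjusted exact p under 0.05 (lowest 0.0873). IGHD1, IGHD2, IGHJ3, IGHJ4, the reading frame, tyrosine, D trimming at both ends, clonotypes under 10 reads and reads outside the 3 largest kept their sign throughout. Signs turned as follows. Weighted by reads, the difference was 8.26 points for IGHV5-2, -8.85 for other IGHV5, 0.583 for IGHV6 and IGHV7, 0.842 for charged residues, -0.00392 for hydropathy, -6.05 for joins without inserts and 0.144 bases for V trimming. With at least 10 reads it was 7.90 for IGHV5-2, -3.73 for other IGHV5, -4.72 for joins without inserts and 0.106 for V trimming. With variants merged it was 1.53, -2.56 and 1.03 for these V groups, 0.111 for D-J inserts, 0.0172 for V trimming and 0.220 for JH trimming. JH trimming was 0.209 without shared sequences. Without WT mice 1432 and 1484 it was 0.0645 for glycine and serine, 0.333 for D-J inserts, -3.01 for joins without inserts and 5.04 for shared reads. Leaving out 1 mouse at a time gave -2.62 to 2.20 for IGHV5-2, -0.971 to 5.47 for other IGHV5, -3.39 to 1.30 for IGHV6 and IGHV7, -2.80 to 2.02 for glycine and serine, -0.0216 to 0.131 for hydropathy, -1.01 to 0.497 for V-D inserts, -0.556 to 0.135 for D-J inserts, -3.57 to 13.4 for joins without inserts, -0.220 to 0.0303 for V trimming, -0.821 to 0.454 for JH trimming, -19.5 to 5.04 for shared reads and 0 to 1 V gene called. TMM called 1 V gene. The cause was not tested. At 9 to 35 clonotypes a mouse, the intervals of most shares span over 20 points.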
